A study of Homo sapiens with 24 samples.

Results

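The AP-1 and EGR immediate-early factors were followed as mRNA in MIA PaCa-2 cells, a line established from a human pancreatic carcinoma. The group holds 10 genes, namely the FOS family (FOS, FOSB, FOSL1, FOSL2), the JUN family (JUN, JUNB, JUND), the zinc finger factors EGR1 and EGR3, and IER3. They were found by matching the Ensembl identifiers of the count table to gene symbols, which gave 10 of 60675 identifiers, and all 10 had enough counts to be tested in every comparison. Clear differences were found in EGR1, JUN, IER3 and the FOS family. EGR1 was 3.09-fold lower in untreated C/EBPδ-inducible cells than in untreated CTRL cells, and rose 3.52-fold in the inducible cells over 48 h of doxycycline. JUN was 1.89-fold higher in untreated inducible than in untreated CTRL cells, and it was higher at every later time too. IER3 rose 3.09-fold over 48 h in the inducible cells. Per kilobase of exon, FOSL2 came to hold a larger share of the FOS family mRNA than FOSL1 in inducible cells at 24 and 48 h. In CTRL cells at 48 h the shares were close, at 48.4% and 48.0%. Without division by length, FOSL2 had more counts than FOSL1 in every library.

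Both lines carry a Tet-On vector, in which doxycycline switches on a promoter. In C/EBPδ-inducible cells, which are a pool of 3 clones with the mVenus reporter, this promoter drives the CEBPD cDNA, and in CTRL cells, which have the mCherry reporter, the vector has no cDNA. Each line was sampled at 0, 8, 24 and 48 h of 2 µg/mL doxycycline, with 3 wells per line and time, which gave 8 groups and 24 libraries of rRNA-depleted total RNA. The sample labels list the same dose at 0 h, but the methods of the study describe those cells as untreated, and they were treated as such. Time in culture and doxycycline change together within a line, and the clones, the reporter and the cDNA differ together between the lines, so that these cannot be told apart. The wells are the replicates, and the error terms measure the spread between wells.

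The libraries held between 12731237 and 22598595 counts. By the chi-square per gene between replicates, the 8 h libraries differed most, with inducible replicate 3 at 10.9 and 11.2 from its mates, which were at 2.24 from each other, and CTRL replicates 1 and 3 at 15.3. CEBPD itself averaged between 1.90 and 4.02 CPM (counts scaled per 1e6 by TMM) in the CTRL groups, 21.6 CPM in untreated inducible cells, and 249, 307 and 204 CPM after 8, 24 and 48 h. The libraries thus followed their labels for the line, and in inducible cells for untreated against treated. CEBPD does not check the times of the CTRL libraries or the order of 8, 24 and 48 h. Vimentin (VIM) lay between 5354 and 7008 CPM and the keratin KRT8 between 34.5 and 1594 CPM, whereas the epithelial adhesion genes EPCAM and CDH1 did not pass 2.29 and 6.21 CPM in any library. KRT8 was lower in untreated inducible than in untreated CTRL cells (log2 −4.40 ± 0.0339), so that the lines differed in their epithelial markers before doxycycline, and its part in the line differences below was not tested. Markers of acinar, endocrine, endothelial and leukocyte cells summed to at most 2.72 CPM per list, and the fibroblast list was carried by COL1A2, with DCN at no more than 1 count. That list summed to 633 to 668 CPM in untreated CTRL cells and 239 to 254 CPM in untreated inducible cells (COL1A2, log2 −1.41 ± 0.0297), and its part in the line differences below was not tested. As these are bulk libraries, with pooled clones in the inducible line, fewer cells with a transcript and less of it per cell cannot be told apart.

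AP-1 is a dimeric transcription factor, built by FOS and JUN proteins through their leucine zippers, that binds a palindromic DNA element in the promoters of growth, invasion and stress genes. FOS proteins need a JUN partner to bind, whereas JUN proteins can also pair among themselves. EGR1 and EGR3 are zinc finger factors that bind GC-rich elements, and together with FOS, JUNB and IER3 they belong to the immediate-early genes, which a growth factor or stress signal switches on without new protein synthesis, in many cases through the ERK pathway and the serum response factor SRF. FOSL1, FOSL2 and JUND are expressed in a more lasting way, and FOSL1 is known to be sustained by RAS and ERK signalling in carcinoma cells.

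Promoters were read from RefSeq on GRCh38.p14, as the 250 bases before the transcription start, for the 7 members found in that table (FOS, FOSB, FOSL2, JUN, JUNB, JUND and EGR1). FOSL1, EGR3 and IER3 had no entry in it. The promoters of EGR1 and JUNB are shown because these genes rose more in the inducible line than in CTRL cells, that of JUN because it fell in both lines, and that of FOS because it was lower in the inducible line at every time. Capitals mark the motifs found.
EGR1 (chr5:138465229-138465478, plus strand): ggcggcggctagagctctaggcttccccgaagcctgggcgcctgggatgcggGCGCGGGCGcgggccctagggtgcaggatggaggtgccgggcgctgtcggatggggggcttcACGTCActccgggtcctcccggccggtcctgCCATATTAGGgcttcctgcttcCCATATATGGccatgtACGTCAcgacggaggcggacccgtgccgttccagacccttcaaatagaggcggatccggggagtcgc
JUNB (chr19:12791236-12791485, plus strand): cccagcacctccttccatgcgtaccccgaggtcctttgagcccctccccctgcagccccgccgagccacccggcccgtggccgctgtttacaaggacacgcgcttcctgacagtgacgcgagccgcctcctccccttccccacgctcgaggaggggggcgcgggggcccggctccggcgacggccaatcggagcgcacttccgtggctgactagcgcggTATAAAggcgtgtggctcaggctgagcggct
JUN (chr1:58784048-58784297, minus strand): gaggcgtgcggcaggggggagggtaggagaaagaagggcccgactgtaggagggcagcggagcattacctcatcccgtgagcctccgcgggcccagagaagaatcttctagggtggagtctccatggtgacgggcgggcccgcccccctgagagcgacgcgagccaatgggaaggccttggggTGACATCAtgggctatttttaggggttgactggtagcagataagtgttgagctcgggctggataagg
FOS (chr14:75278578-75278827, plus strand): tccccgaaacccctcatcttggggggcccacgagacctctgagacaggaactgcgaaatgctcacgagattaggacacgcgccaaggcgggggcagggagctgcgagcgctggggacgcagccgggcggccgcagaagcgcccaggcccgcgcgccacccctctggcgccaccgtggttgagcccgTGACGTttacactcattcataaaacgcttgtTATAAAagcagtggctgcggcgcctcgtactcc
The capitals in EGR1 are, in order, a GCGNGGGCG element (the EGR site), an ACGTCA, the CArG boxes CCATATTAGG and CCATATATGG (the element bound by SRF) and a second ACGTCA, which is TGACGT on the other strand and the core of a CREB/ATF site. The capitals in JUN are TGACATCA, a variant AP-1/ATF site, those in JUNB are the TATA box TATAAA, and those in FOS are TGACGT and TATAAA. Both strands were searched, with overlapping matches counted, and TGACGT and TGACATCA were added after the sequences had been seen.

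Among the 7 promoters, the CArG box was found in 1 (EGR1, with 2 sites at −105 to −96 and −83 to −74 from the start), and 1.16% of the 35116 promoters in the table held one. TGACGT was found in 5 of the 7 (FOS, FOSB, FOSL2, JUND and EGR1, with 8 sites in all, of which 2 in JUND overlap), against 7.10% of all promoters. The window of FOSL2 (chr2:28392608-28392857) lies inside the longer GENCODE model of that gene, which starts at 28392448. TATAAA was found in FOS, FOSB and JUNB, against 10.7%, GCGNGGGCG in EGR1, against 8.41%, and TGACATCA in JUN, against 2.37%. As TGACGT and TGACATCA were picked after these windows had been seen, their counts among the 7 are no test against these percentages. The canonical AP-1 site TGACTCA (4.20% of all promoters) and the C/EBP core TTGCNNAA (9.05%) were not among the letters of these 7 windows.

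Per kilobase of exon, the members fell into 2 levels. FOSL1 averaged 40.5 CPM per kb over the 24 libraries, FOSL2 38.8, JUN 36.3, JUND 31.3, EGR1 29.7, JUNB 16.8 and IER3 10.6 CPM per kb. FOS (1.41), FOSB (0.844) and EGR3 (0.328 CPM per kb) were far lower, with between 5 and 173 counts per library, which makes their estimates less precise. Within AP-1, most mRNA per kilobase was thus FOSL1, FOSL2, JUN and JUND, and little was FOS or FOSB.

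**Figure D1:**
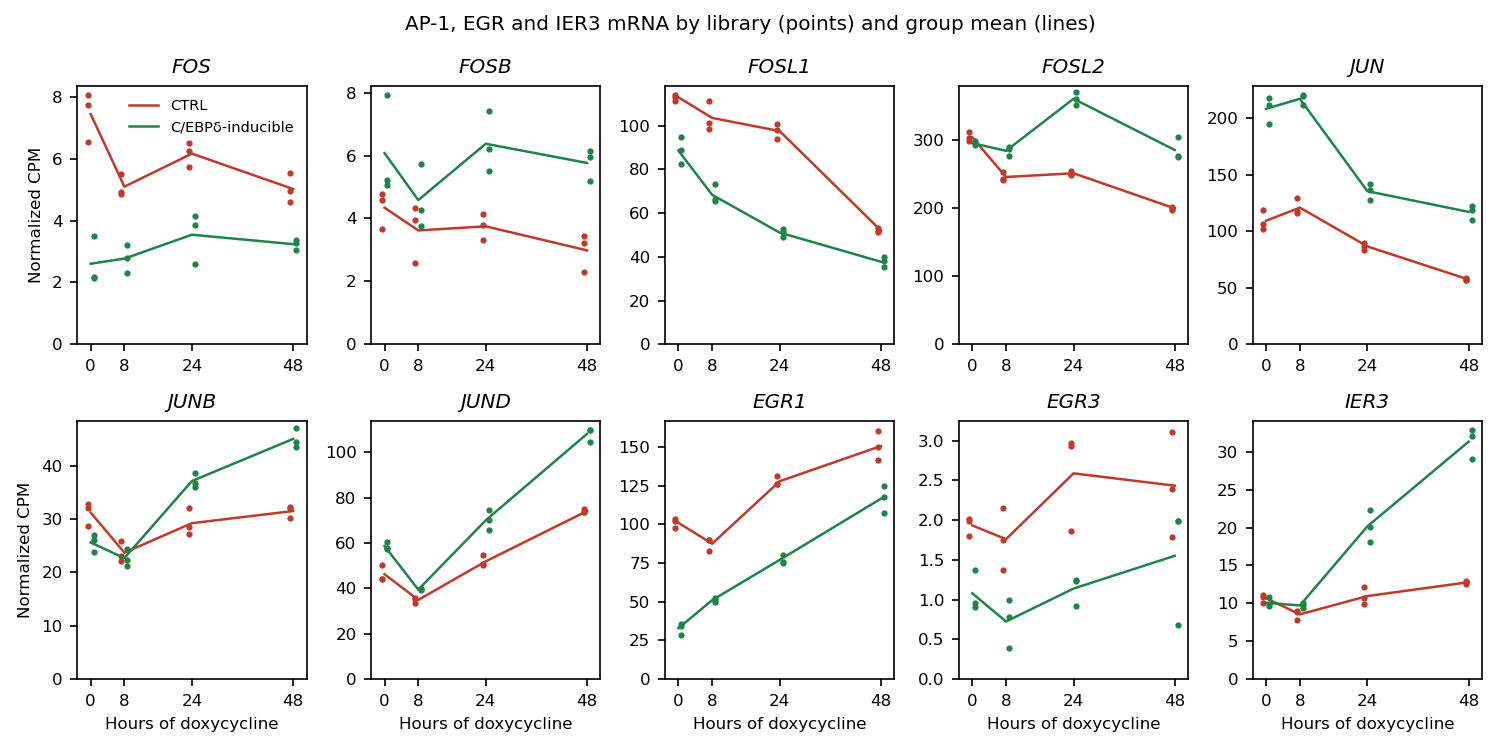
TMM-normalized CPM (vertical axis, from 0, with its own scale per gene) against hours of doxycycline for the 10 members, with 1 point per library (shifted slightly sideways by line) and lines through the means of 3 libraries for CTRL cells (red) and C/EBPδ-inducible cells (green). EGR1 started at 32.9 CPM in the inducible line and 101 CPM in CTRL cells and rose in both, IER3 climbed to 31.3 CPM in the inducible line and stood at 12.8 CPM in CTRL cells, and FOSL1 and JUN fell in both lines.

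The lines were compared at each time. Before doxycycline, 7 of the 10 members differed between the lines at an FDR of 0.01 in edgeR's quasi-likelihood test, where 44.1% of 15317 genes did: JUN and JUND were higher in the inducible line, and FOS, FOSL1, JUNB, EGR1 and EGR3 were lower. At 8 h 6 members differed (31.9% of genes), at 24 h all 10 (47.1%) and at 48 h 9 (38.4%). At 8 h 2 were higher and 4 lower (14.4% and 17.5% of genes), and 4 of the 6 calls were left without CTRL 8 h replicate 2 or without any 1 of the inducible 8 h libraries, when FOSL2 and EGR3 were lost. At 24 h 6 were higher and 4 lower (21.7% and 25.3%). The balance of directions shifted, from 2 higher and 5 lower at 0 h (20.1% and 24% of genes) to 6 higher and 3 lower at 48 h (17.7% and 20.7%), and the median log2 fold change of the members went from −0.19 at 0 h to 0.51 at 48 h, with that of all genes at 0.010 and 0.0099. The libraries of the lines did not overlap for 8, 8, 10 and 9 members at 0, 8, 24 and 48 h, where 60.2%, 54.4%, 61.8% and 57.1% of genes did not overlap.

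**Figure D2:**
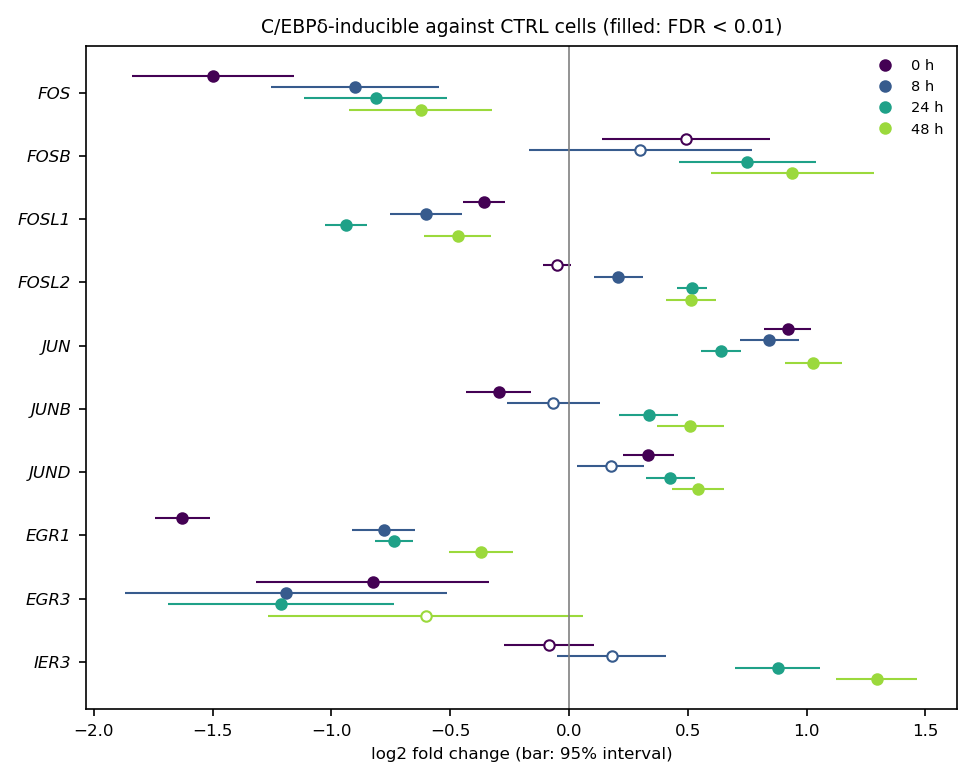
Log2 fold change of C/EBPδ-inducible against CTRL cells for each member at 0, 8, 24 and 48 h, with 95% intervals from edgeR, and filled points for an FDR under 0.01. JUNB crosses from −0.30 at 0 h to 0.51 at 48 h, the negative differences of EGR1 and FOS shrink from −1.63 and −1.50 to −0.37 and −0.62, and IER3 departs from 0 at 24 and 48 h.

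Within CTRL cells, 1 member differed from 0 h at 8 h (FOSL2, lower), where 1.65% of genes did, 4 at 24 h (EGR1 higher; FOSL1, FOSL2 and JUN lower), where 6.13% did, and 6 at 48 h (EGR1 and JUND higher; FOS, FOSL1, FOSL2 and JUN lower), where 30.1% did. Within the inducible line, 3 members differed from 0 h at 8 h (EGR1 higher; FOSL1 and JUND lower), where 31% of genes did, 7 at 24 h (FOSL2, JUNB, JUND, EGR1 and IER3 higher; FOSL1 and JUN lower), where 15.5% did, and 6 at 48 h (JUNB, JUND, EGR1 and IER3 higher; FOSL1 and JUN lower), where 38.8% did. By direction, at 8, 24 and 48 h 0, 1 and 2 members rose in CTRL cells, where 0.879%, 2.84% and 15.2% of genes did, and 1, 3 and 4 fell, where 0.767%, 3.29% and 14.8% did. In the inducible line 1, 5 and 4 rose, where 14.8%, 7.36% and 19.2% of genes did, and 2, 2 and 2 fell, where 16.2%, 8.12% and 19.6% did. Libraries of the later time did not overlap with those of 0 h for 7, 6 and 8 members in CTRL cells (26.7%, 28.6% and 52.7% of genes) and for 4, 7 and 6 in the inducible line (49.7%, 36.5% and 55.5%). The call of FOSL2 in CTRL cells at 8 h was lost without CTRL 8 h replicate 2 or any of the CTRL 0 h libraries, and without CTRL 8 h replicate 1 FOSL2, JUNB and JUND were all called lower (765 genes in all, against 251).

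The interaction of line and time, that is the change from 0 h in inducible cells minus the change in CTRL cells, was called for 2 members at 8 h (EGR1 and FOSL2, both higher), where 1.69% of 16228 genes were called, 0.906% higher and 0.783% lower. At 24 h it was called for 6 members, where 5.82% of genes were called. EGR1, IER3, JUNB and FOSL2 were higher (2.88% of genes) and FOSL1 and JUN lower (2.95%). At 48 h it was called for 4 members, where 5.46% of genes were, and these were EGR1, IER3, JUNB and FOSL2, all higher (2.8%, with 2.66% of genes lower). The 3 interactions share the 0 h libraries with each other and with the comparisons within a line, so that they are not independent of them.

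**Figure D3:**
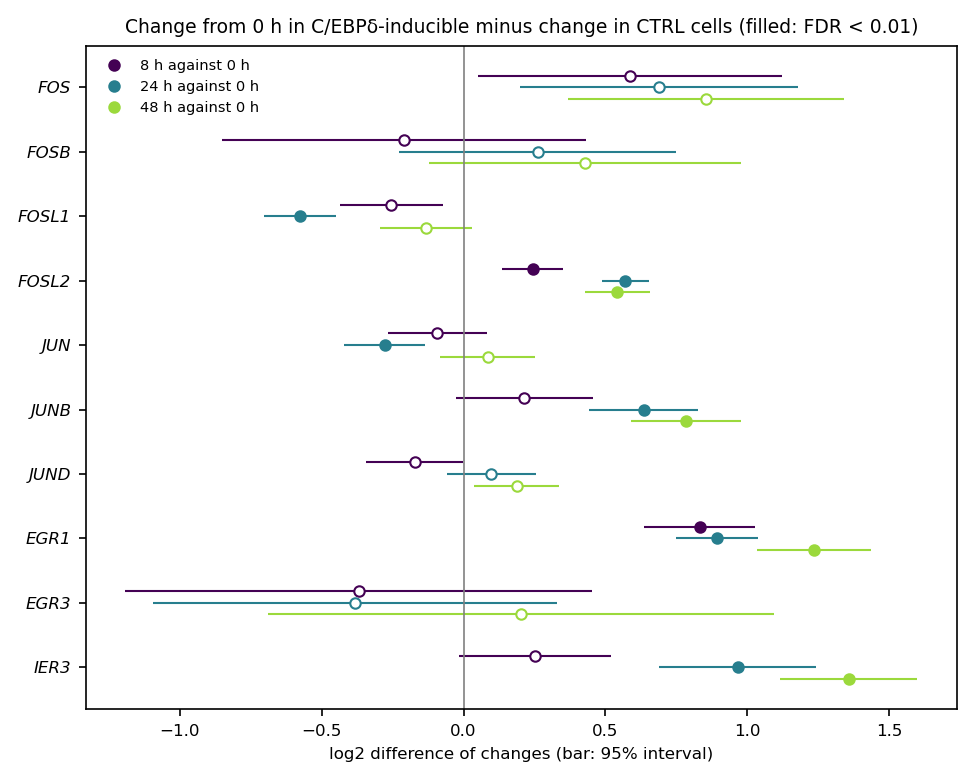
Difference between the changes from 0 h (inducible minus CTRL cells, on the log2 scale) for each member at 8, 24 and 48 h, with 95% intervals from edgeR, and filled points for an FDR under 0.01. EGR1 stands at 0.83, 0.89 and 1.24, IER3 moves from 0.25 to 1.36, and the wide bars of FOSB and EGR3 reflect their low counts.

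FOSL1 (FRA-1, ENSG00000175592, GRCh38 chromosome 11, 65892049 to 65900573), the FOS protein most tied to RAS-driven carcinoma, fell in both lines. Its libraries in CTRL cells read 111, 113 and 114 CPM at 0 h, 111, 101 and 98.5 CPM at 8 h, 101, 98.0 and 93.8 CPM at 24 h and 53.2, 51.1 and 51.8 CPM at 48 h. In inducible cells they read 82.3, 94.6 and 88.8 CPM at 0 h, 66.2, 73.5 and 65.3 CPM at 8 h, 52.7, 51.4 and 49.2 CPM at 24 h and 40.1, 35.2 and 37.9 CPM at 48 h. Every inducible library lay below every CTRL library of its own time, and the inducible line at 24 h had reached the level of CTRL cells at 48 h. The line difference was −0.36 ± 0.0428 (log2 fold change ± standard error, FDR 5.94e-07) at 0 h, −0.94 ± 0.0425 (FDR 2.77e-16) at 24 h and −0.47 ± 0.0649 (FDR 4.02e-05) at 48 h. The fall to 24 h was larger in the inducible line, by −0.58 ± 0.0623 (FDR 2.79e-07), while the falls to 48 h were 2.18-fold in CTRL and 2.38-fold in inducible cells, with a difference whose 95% interval ran from −0.30 to 0.03.

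FOSL2 (FRA-2, ENSG00000075426, chromosome 2, 28392448 to 28417317) fell in CTRL cells and was higher at 24 h in the inducible line. In CTRL cells it read 302, 298 and 310.4 CPM at 0 h, 253, 240.2 and 243 CPM at 8 h, 249.9, 248 and 254 CPM at 24 h and 199, 197 and 201 CPM at 48 h. In inducible cells it read 295, 298 and 292 CPM at 0 h, 289, 276 and 286 CPM at 8 h, 369.9, 351 and 359 CPM at 24 h and 304, 274 and 276 CPM at 48 h. The lines overlapped at 0 h and were separate afterwards, with the highest libraries of all in the inducible line at 24 h. FOSL2 fell 1.53-fold in CTRL cells by 48 h (−0.61 ± 0.0403, FDR 3.73e-07) and rose 1.22-fold in inducible cells by 24 h (0.29 ± 0.0291, FDR 2.96e-08). In inducible cells it was at −0.064 ± 0.0268 (FDR 0.0599) at 8 h and −0.062 ± 0.0347 (FDR 0.146) at 48 h against 0 h, and without inducible 48 h replicate 1 it was called lower at 48 h (−0.11, FDR 0.00122). The difference of the changes was 0.57 ± 0.0396 (FDR 1.3e-10) at 24 h and 0.54 ± 0.0542 (FDR 1.41e-06) at 48 h. At 8 h it was 0.24 ± 0.0502 (FDR 0.00993), a call that was lost in 10 of the 12 fits that left out 1 library.

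FOS (ENSG00000170345, chromosome 14, 75278826 to 75282230), the founding member of AP-1, had few counts. It read 7.74, 6.53 and 8.05 CPM in untreated CTRL cells and 2.19, 3.48 and 2.14 CPM in untreated inducible cells, a 2.83-fold difference (log2 −1.50 ± 0.162, FDR 1.54e-07). The groups stayed apart at every time, and the difference was −0.90 ± 0.161 at 8 h, −0.81 ± 0.146 at 24 h and −0.62 ± 0.14 at 48 h (FDR 0.000796, 3.12e-05 and 0.00209). FOS fell in CTRL cells to 5.02 ± 0.473 CPM (SD, n = 3) at 48 h (−0.58 ± 0.129, FDR 0.00299), while inducible cells were at 2.60 ± 0.762 CPM at 0 h and 3.24 ± 0.161 CPM at 48 h, and the interaction did not pass the threshold (0.85 ± 0.232, FDR 0.0229 at 48 h). Without inducible 0 h replicate 2, which had the highest FOS value of its group, that interaction was 1.15 and was called (FDR 0.00271). The fall of FOS in CTRL cells was no longer called in 3 of the 6 fits that left out 1 library (FDR up to 0.0183) or with the replicate block (FDR 0.0102), nor was the line difference at 48 h without inducible 48 h replicate 1 (FDR 0.0108).

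FOSB (ENSG00000125740, chromosome 19, 45467995 to 45475179), the close relative of FOS, had a higher mean in the inducible line at every time. It averaged 4.34, 3.62, 3.75 and 2.98 CPM in CTRL cells at 0, 8, 24 and 48 h, and 6.08, 4.58, 6.37 and 5.76 CPM in inducible cells. Libraries of the lines overlapped at 8 h and not at the other times, and the difference was called at 24 h (1.68-fold higher, FDR 4.71e-05) and 48 h (1.92-fold higher, FDR 0.000225). At 0 h it was 1.41-fold (FDR 0.0183), and it was called there without inducible 0 h replicate 1 (FDR 0.00813). Unlike that of FOSL2, the difference of the changes did not pass the threshold at 24 h (0.26 ± 0.237, FDR 0.594) or 48 h (0.43 ± 0.262, FDR 0.358).

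With these changes, the make-up of the FOS family changed. FOSL1 held 56.8% ± 0.609 (SD, n = 3) of the family's CPM per kb in untreated CTRL cells and 52.1% ± 1.43 in untreated inducible cells. In the inducible line it held 46.7% ± 2.33 at 8 h, 34.0% ± 0.633 at 24 h and 32.4% ± 0.809 at 48 h, with FOSL2 at 63.1% ± 0.998 at 24 h and 64.3% ± 0.634 at 48 h. In CTRL cells FOSL1 held 60.0% ± 0.958, 57.9% ± 0.989 and 48.0% ± 0.433 at 8, 24 and 48 h, and FOSL2 37.5% ± 0.900, 39.2% ± 1.14 and 48.4% ± 0.523. The ratio of FOSL1 to FOSL2 per kb was thus 1.41 and 1.14 in the untreated lines, and 1.48 in CTRL against 0.539 in inducible cells at 24 h. At 48 h it was 0.992 in CTRL and 0.503 in inducible cells. In CPM, which is not divided by length, FOSL2 lay above FOSL1 in every library (at least 197 against at most 114 CPM). The family as a whole went from 105 to 57.5 CPM per kb in CTRL cells and from 90.0 to 61.8 CPM per kb in inducible cells between 0 and 48 h.

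**Figure D4:**
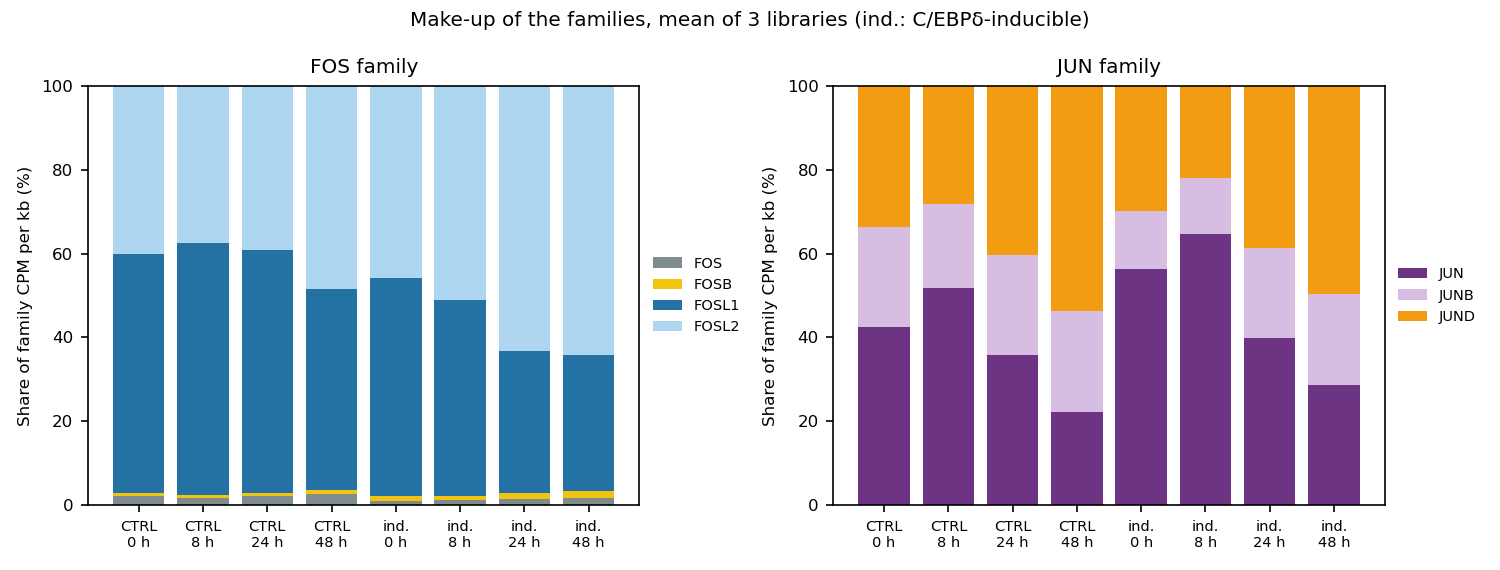
Share of each member (vertical axis, percent from 0 to 100) in the summed CPM per kb of the FOS family (left) and the JUN family (right) for the 8 groups, as means of 3 libraries (ind., C/EBPδ-inducible). FOSL1 drops to 32.4% of the FOS family in the inducible line at 48 h, and JUND grows to 53.8% and 49.6% of the JUN family at 48 h in CTRL and inducible cells.

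JUN (ENSG00000177606, chromosome 1, 58776845 to 58784048), a JUN family partner of FOS proteins, was higher in the inducible line throughout and fell in both lines after 8 h. In CTRL cells it read 102, 107 and 119 CPM at 0 h, 129, 118 and 116 CPM at 8 h, 83.6, 89.4 and 86.9 CPM at 24 h and 56.6, 57.1 and 58.3 CPM at 48 h. In inducible cells it read 195, 218 and 212 CPM at 0 h, 220.1, 220.5 and 211 CPM at 8 h, 142, 136 and 128 CPM at 24 h and 119, 110.4 and 122 CPM at 48 h. No library of one line overlapped with the other at any time. JUN was 1.89-fold higher in the inducible line at 0 h (0.92 ± 0.0475, FDR 2.29e-12) and 2.04-fold higher at 48 h (1.03 ± 0.0562, FDR 3.86e-09), and it fell 1.92-fold in CTRL and 1.80-fold in inducible cells over 48 h. The fall to 24 h was slightly larger in the inducible line (−0.28 ± 0.0696, FDR 0.00904), but this call was lost in 9 of the 12 fits that left out 1 library, in the model of all 24 libraries (FDR 0.0263) and with the replicate number as a block (FDR 0.0122), and at 48 h the difference of the changes was 0.085 ± 0.0798.

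JUNB (ENSG00000171223, chromosome 19, 12791486 to 12793315), an AP-1 subunit that can hold back JUN, changed its rank between the lines. In CTRL cells it read 32.9, 28.6 and 32.2 CPM at 0 h and 32.3, 30.2 and 32.1 CPM at 48 h. In inducible cells JUNB read 23.8, 27.0 and 26.1 CPM at 0 h, 24.5, 21.2 and 22.4 CPM at 8 h, 38.6, 36.0 and 36.8 CPM at 24 h and 47.1, 44.5 and 43.5 CPM at 48 h. The inducible line thus lay below CTRL cells at 0 h and above them at 24 and 48 h, without overlap. The line difference went from −0.30 ± 0.0651 (FDR 0.000705) at 0 h to 0.51 ± 0.0647 (FDR 1.81e-05) at 48 h, and the difference of the changes was 0.63 ± 0.0933 (FDR 2.69e-05) at 24 h and 0.78 ± 0.0919 (FDR 9.89e-06) at 48 h, the first of which was lost in the per-gene analysis of variance (adjusted p 0.0124). The line differences of JUNB at 0 and 24 h were lost in the analysis of variance too (adjusted p 0.0485 and 0.0331). Exons of JUNB share 259 bases (14.2% of its exon bases) with HOOK2 on the other strand, which had 43 to 147 counts per library. The strand setting of the counting is not given in the sources used here. It is thus not known how reads in these bases were counted, and whether they raised or lowered the counts of JUNB.

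JUND (ENSG00000130522, chromosome 19, 18279694 to 18281622), a JUN protein that is also present in resting cells, was lower at 8 h than at 0 h and highest at 48 h in both lines. It averaged 46.2, 34.9, 51.9 and 74.1 CPM in CTRL cells at 0, 8, 24 and 48 h, and 58.6, 39.4, 70.0 and 108 CPM in inducible cells. Against 0 h, JUND at 8 h was at −0.38 ± 0.0711 in CTRL cells (FDR 0.0135, not called) and −0.58 ± 0.0432 in inducible cells (FDR 1.36e-10, called). By 48 h it rose 1.60-fold in CTRL cells (FDR 4.45e-06) and 1.83-fold in inducible cells (FDR 1.21e-15), with a difference of the changes of 0.19 ± 0.0712 that did not pass the threshold (FDR 0.108, 95% interval 0.04 to 0.34). As JUN fell and JUND rose, JUND went from 33.6% ± 0.425 of the JUN family's CPM per kb to 53.8% ± 0.394 in CTRL cells, and from 29.8% ± 0.869 to 49.6% ± 1.52 in inducible cells.

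Heat-shock genes, measured as a sign of handling and stress, were lower at some of the times at which FOSL1 and JUN were lower. Of the 10 genes in this list, 8 of the 9 tested were lower at 48 h in CTRL cells (14.8% of all genes were), and 8 were lower and 1 higher at 48 h in inducible cells (19.6% and 19.2% of all genes). In CTRL cells at 24 h, where FOSL1 and JUN were called lower, 1 heat-shock gene was lower and 1 higher of 9 (3.29% and 2.84% of all genes). In inducible cells at 8 h 8 of 10 were lower (16.2% of all genes), with FOSL1 at −0.38 ± 0.0474 (called) and JUN at 0.052 ± 0.0338 (not called) against 0 h. In inducible cells at 24 h 7 of 10 were lower and 1 higher (8.12% and 7.36% of all genes), with FOSL1 at −0.79 ± 0.0484 and JUN at −0.62 ± 0.0411, both called. The summed level of the list was 10390.4 to 10807 CPM in CTRL cells at 0 h, 10213 to 10557 CPM at 24 h and 7427 to 7892 CPM at 48 h, and 9639 to 9713 CPM and 7258 to 7456 CPM in inducible cells. At 24 h the interaction was lower for 5 of the 10 (2.95% of all genes; HSPH1, −0.28 ± 0.0355, among them), beside the larger falls of FOSL1 and JUN in the inducible line at that time. The part of these changes in those of FOSL1 and JUN was not tested.

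EGR1 (ENSG00000120738, chromosome 5, 138465479 to 138469303), a growth factor-induced regulator that also limits growth in many tissues, was called in 12 of the 13 comparisons, the most of any member. Its libraries in CTRL cells read 97.7, 103 and 102 CPM at 0 h, 82.6, 89.8 and 90.1 CPM at 8 h, 131, 126 and 126 CPM at 24 h and 141, 160.4 and 150.2 CPM at 48 h. In inducible cells they read 28.8, 34.4 and 35.6 CPM at 0 h, 49.6, 52.3 and 51.2 CPM at 8 h, 75.3, 80.3 and 75.6 CPM at 24 h and 108, 125 and 118 CPM at 48 h. The 8 groups occupied 8 ranges that did not overlap, with the inducible line below CTRL cells at each time and each of its times above the one before. The line difference shrank from −1.63 ± 0.0561 (FDR 3.49e-15) at 0 h to −0.78 ± 0.0606 (FDR 1.09e-06) at 8 h, −0.74 ± 0.0383 (FDR 5.62e-15) at 24 h and −0.37 ± 0.0628 (FDR 0.000244) at 48 h.

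Over 48 h EGR1 rose 3.52-fold in inducible cells (1.82 ± 0.0583, FDR 6.36e-19) and 1.49-fold in CTRL cells (0.57 ± 0.0534, FDR 5.41e-06). The difference of the changes was 0.83 ± 0.0926 (FDR 8.56e-05) at 8 h, 0.89 ± 0.0699 (FDR 9.73e-10) at 24 h and 1.24 ± 0.0957 (FDR 6.05e-08) at 48 h. Among the 7 members whose promoter windows were searched, EGR1 alone held CArG boxes. Sequence outside these windows was not searched, nor were the promoters of FOSL1, EGR3 and IER3. Whether the boxes have a part in the rise of EGR1 was not tested. The level of EGR1 in the inducible line at 48 h, 117 ± 8.59 CPM (SD, n = 3), lay just above that of untreated CTRL cells, 101 ± 2.99 CPM.

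EGR3 (ENSG00000179388, on chromosome 8) lay at the edge of what these libraries can measure, with 5 to 65 counts. It averaged 1.93, 1.76, 2.59 and 2.43 CPM in CTRL cells and 1.08, 0.725, 1.14 and 1.55 CPM in inducible cells at 0, 8, 24 and 48 h. The inducible line was 2.32-fold lower at 24 h (FDR 6.7e-05), and it was called lower at 0 h (FDR 0.00541) and 8 h (FDR 0.00839) too, but both of those calls were lost with DESeq2 (adjusted p 0.0340 and 0.0129) and with the replicate number as a block (FDR 0.0102 and 0.0113). The same 2 calls were lost in 4 and 5 of the 6 fits that left out 1 library. With all libraries, no change with time was called for EGR3 in either line. Without inducible 48 h replicate 1, it was called higher in inducible cells at 48 h than at 0 h (0.84, FDR 0.0096). The interval of its interaction at 48 h, from −0.69 to 1.09, leaves room for a change as large as that of JUNB.

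IER3 (ENSG00000137331, chromosome 6, 30743199 to 30744548), an early-response regulator of cell survival, overlapped between the untreated lines and rose in the inducible one. In CTRL cells it read 11.2, 10.8 and 9.99 CPM at 0 h, 8.82, 7.85 and 8.96 CPM at 8 h, 12.2, 9.95 and 10.7 CPM at 24 h and 12.6, 12.8 and 13 CPM at 48 h. In inducible cells it read 9.60, 10.8 and 9.86 CPM at 0 h, 9.37, 9.80 and 9.98 CPM at 8 h, 22.3, 18.1 and 20.1 CPM at 24 h and 32.1, 32.8 and 29.0 CPM at 48 h. The lines overlapped at 0 h and not at 8 h, where the difference did not pass the threshold (0.18 ± 0.104, FDR 0.188), and the inducible libraries at 24 and 48 h stood above every other library. IER3 rose 2.00-fold by 24 h (1.00 ± 0.0869, FDR 2.83e-09) and 3.09-fold by 48 h (1.63 ± 0.075, FDR 1.51e-15) in inducible cells, and its change in CTRL cells at 48 h, 0.26 ± 0.0889, did not pass the threshold (FDR 0.0325).

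The difference of the changes of IER3 was 0.97 ± 0.134 (FDR 1.22e-05) at 24 h and 1.36 ± 0.116 (FDR 1.9e-07) at 48 h, and 0.25 ± 0.127 (FDR 0.25) at 8 h. Of the exon bases of IER3, 525 (38.9%) lie opposite IER3-AS1 or HCG20, which had 3 to 12 and 0 to 2 counts per library, far fewer than the 127 to 759 counts of IER3. As for JUNB, it is not known how reads in the shared bases were counted.

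The partners and corepressors of these factors were read from lists. Of 13 other bZIP genes that can pair with AP-1 proteins, 12 were tested at 48 h against 0 h, and 4 rose and 3 fell in CTRL cells (15.2% and 14.8% of all genes) and 3 rose and 3 fell in inducible cells (19.2% and 19.6%). In the inducible line JDP2, a repressive partner of JUN, rose by 1.92 ± 0.232 on the log2 scale, BATF3 by 1.56 ± 0.21 and the stress-induced ATF3 by 0.91 ± 0.125, while MAFK fell by 0.48 ± 0.0563. JDP2 and ATF3 also rose in CTRL cells, by 2.00 ± 0.176 and 0.92 ± 0.183, and MAFK at 24 h (−0.37 ± 0.0822) was the 1 bZIP gene whose interaction was called at any time. Of all genes, 1.69%, 5.82% and 5.46% had a called interaction at 8, 24 and 48 h. NAB2, the corepressor that EGR1 itself switches on, showed a difference of changes of 0.41 ± 0.0845 (FDR 0.0014) at 24 h and 0.53 ± 0.104 (FDR 0.0022) at 48 h. These had the sign of those of EGR1. Of the 2 genes tested among NAB1, NAB2, EGR2 and EGR4, 1 was higher and 1 lower in the inducible line at 24 h (21.7% and 25.3% of genes). The same held at 48 h (17.7% and 20.7%), and EGR1 was lower at both times. Whether NAB2 followed EGR1 was not tested. NAB1 was lower in the inducible line before doxycycline, at 49.2 CPM against 88.6 CPM, and EGR2 and EGR4 had between 2 and 17 counts per library.

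Of 39 other immediate-early genes, 36 were tested. Their interaction was called for 3 higher and 4 lower at 8 h (0.906% and 0.783% of all genes), 5 and 3 at 24 h (2.88% and 2.95%), and 9 and 2 at 48 h (2.8% and 2.66%), with a median of 0.083 at 48 h against −0.010 for all genes tested. TRIB1, which codes for a pseudokinase that controls the decay of C/EBP proteins, was at 11.8 CPM in untreated inducible cells and at 30.3, 30.8 and 31.6 CPM at 8, 24 and 48 h (difference of changes 1.28 ± 0.117, 1.10 ± 0.119 and 0.97 ± 0.108). NFKBIA, the inhibitor of NF-κB, had a difference of 0.83 ± 0.0651 at 24 h, and the growth arrest gene GADD45A one of −0.97 ± 0.092 at 24 h and −1.28 ± 0.108 at 48 h. In CTRL cells 17 of the 36 fell and 4 rose by 48 h (14.8% and 15.2% of all genes), and in inducible cells 14 fell and 7 rose (19.6% and 19.2%).

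Genes known as AP-1 targets were described too. Of 19, 14 were tested between the untreated lines, where 5 were higher and 7 lower in the inducible line (20.1% and 24% of all genes). The largest difference was that of MMP1, a collagenase that is a textbook AP-1 target, at 1226 CPM in untreated CTRL cells and 5.80 CPM in untreated inducible cells (log2 −7.74 ± 0.0555), and it was 1126 against 2.67 CPM at 48 h. The chemokine CXCL8 was higher in the inducible line at 0 h, by 1.29 ± 0.0371. The interaction at 48 h was 0.76 ± 0.0827 for CXCL8 and −0.997 ± 0.138 for MMP1.

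The genes whose pattern over the 24 libraries was most like each member were named by Pearson's r of log2(CPM + 1) among 16808 genes, as a description in which all points share libraries, lines and times. For FOSL1 these were C11orf68 (r = 0.967), which lies 16237 bases away on chromosome 11, and the heat-shock gene DNAJB1 (0.963). For FOSL2 they were LATS2 and ENO1 (0.950 and 0.939), for JUN UAP1 and ANXA2 (0.987 and 0.986), for JUNB ACACA (0.919, among others) and for JUND DHCR7 and ZNF395 (0.970 and 0.957). For EGR1 they were IFNGR2 and PGM1 (0.974 and 0.974), and for IER3 ORM1 and PFKFB4 (0.954 and 0.943). The weakly expressed members had lower values, with MOGS and CIPC for FOS (0.927 and 0.917), CDC34 and NHP2 for FOSB (0.864 and 0.859), and ENSG00000261094 and KIAA1958 for EGR3 (0.857 and 0.846).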

How the data were processed

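Ribosomal RNA was removed from total RNA before sequencing. The authors trimmed the reads with Trimmomatic (0.36 in the submitters' processing notes), mapped them to GRCh38 by HISAT2 and used HTSeq for counting. Per the labels and the values, the authors deposited raw counts per Ensembl gene, neither normalized nor pooled, and the strand setting is not given in the sources used here. Reads carry no molecular identifiers, so that intervals cover counting and well-to-well error only. Gene names and positions come from GENCODE 44 (56558 of 60675 identifiers matched), and promoters from RefSeq.

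Counts were TMM-scaled, filtered with filterByExpr and tested with edgeR 4.0.16 (quasi-likelihood, two-sided, in R 4.3.3) in a model of the groups compared, with Benjamini-Hochberg adjustment over all genes and an FDR threshold of 0.01. A value with ± is a log2 estimate with its standard error unless SD is named. An exact permutation test of 3 wells against 3 has a smallest p of 0.1, and none was run. Per-kilobase levels divide CPM by the summed exon length. The members, lists and motifs were chosen with earlier results of these data known. All members are named, and of each other list up to 3 called genes per direction and comparison, those with the largest change; levels of EGR2 and EGR4 were added after their counts were seen. Some genes that this rule names are not reported here. By the replicate numbers in the labels, deviations from the group mean went together across genes between CTRL 24 h and CTRL 0 h (r 0.143 to 0.190 over 3 pairs), and 4 members were called there with and without the replicate block. The script was tested on simulated data. Alternatives were DESeq2 1.42.0, no filter, a model of all 24 libraries, the replicate block, an analysis of variance on log2(CPM + 1) and leaving out each library.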

Additional observations from a re-analysis of the deposited data

Results flagged for a closer look

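The change from 0 h differed between the lines, by edgeR's test of the interaction itself, for 6 members. For EGR1 the change in inducible cells exceeded that in CTRL cells by 0.83 at 8 h, 0.89 at 24 h and 1.24 at 48 h on the log2 scale. For FOSL2 it did so by 0.24, 0.57 and 0.54 at these times. For JUNB the excess was 0.63 at 24 h and 0.78 at 48 h, and for IER3 it was 0.97 at 24 h and 1.36 at 48 h. FOSL1 (−0.58) and JUN (−0.28) fell more in inducible cells at 24 h. The calls of JUN at 24 h and FOSL2 at 8 h were lost in 9 and 10 of the 12 fits that left out 1 library and with the replicate block, and that of JUN also in the model of all 24 libraries. No group had more than 3 libraries, so that no test of a single member's value in 1 library was made.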

How the results depend on the processing

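No member changed the direction of a called difference under the alternatives run. The per-gene analysis of variance called fewer members: 3 in place of 7 between the lines at 0 h, 3 of 6 at 8 h, 5 of 10 at 24 h and 6 of 9 at 48 h (without FOS, FOSB and EGR1), 0 in CTRL cells at 8 and 24 h in place of 1 and 4, 1 and 3 in inducible cells at 8 and 24 h in place of 3 and 7, and 1 in place of 2 in the interaction at 8 h and 4 in place of 6 at 24 h (without JUN and JUNB). CTRL cells at 8 h had 2 members called with DESeq2 and without the filter, 3 in the model of all 24 libraries and 0 with the replicate block. The interaction at 8 h had 1 without the filter and 1 with the replicate block. The cause was not tested. Leaving out 1 library gave 0 to 3 members in CTRL cells at 8 h and 1 to 2 in the interaction at 8 h. Over the other comparisons it gave 6 to 7, 4 to 6, 10 to 10 and 8 to 9 between the lines at 0, 8, 24 and 48 h, 4 to 4 and 5 to 6 in CTRL cells and 3 to 4, 7 to 7 and 6 to 8 in inducible cells in order of time, and 5 to 6 and 4 to 5 in the interaction at 24 and 48 h.

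With the replicate block, the calls of EGR3 between the lines at 0 and 8 h, FOSL2 in CTRL cells at 8 h, FOS in CTRL cells at 48 h (FDR 0.0102), and the interactions of FOSL2 at 8 h (FDR 0.0218) and JUN at 24 h were lost, and no other call of a member changed. Outside CTRL cells at 24 h, the mean r between libraries of the same number lay between −0.0953 and 0.0872. In inducible cells at 48 h against 0 h all 3 pairs were positive (0.0402 to 0.155). Libraries of unlike number were not compared, so that a pairing by number is neither shown nor excluded. Over all genes, the analysis of variance called 3854, 2317, 4317 and 3167 genes between the lines (6757, 4962, 7389 and 5986 with edgeR), 1, 39 and 1659 in CTRL cells (251, 931 and 4596), 1239, 498 and 2238 in inducible cells (4769, 2408 and 5972), and 82 and 569 in the interaction at 8 and 24 h (274 and 945). In CTRL cells at 8 h DESeq2 called 430, the model of all 24 libraries 1218 and the block 88, and in the interaction at 8 h DESeq2 called 423, no filter 421, all 24 libraries 448 and the block 161. The model of all 24 libraries called 581 in CTRL cells at 24 h, 3133 in inducible cells at 8 h and 604 in the interaction at 24 h. Depth limits FOS, FOSB and EGR3 most, whose counts lay between 5 and 173.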

Other observations

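Genes upstream of these factors were read as lists. Of 17 SRF, TCF and MAP kinase genes, the interaction was called for 1 at 8 h (MAP2K2, −0.40), 2 at 24 h (MAPK14, 0.27, and MAP2K2, −0.23) and 3 at 48 h (MAPK14, 0.30, ELK3, −0.38, and MRTFB, −0.51). Of all genes, it was called for 1.69%, 5.82% and 5.46% at these times. Of 11 feedback genes of the ERK pathway, the interaction was called for 1 higher and 1 lower at 8 h, 2 and 1 at 24 h and 3 and 0 at 48 h, with a median of −0.073 at 24 h. By direction, 0.906%, 2.88% and 2.8% of all genes were higher at these times, and 0.783%, 2.95% and 2.66% lower. DUSP6, the phosphatase that takes ERK as its substrate, had interactions of 0.88, 0.97 and 0.87 at 8, 24 and 48 h, while SPRY4 stood at −0.28 at 8 h and −0.22 at 24 h. Of the 8 genes listed as EGR1 targets, the interaction at 24 h was called for NAB2 (0.41) and PDGFA (−0.57), which had opposite signs, and at 48 h for NAB2 (0.53).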
